A study of Mus musculus with 31 samples.

Results

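The regions described here are stretches of mouse autosomes that carried histone H3 lysine 9 trimethylation (H3K9me3) peaks in E13.5 male germ cells and little or no H3K9me3 peak length in E13.5 female germ cells. Chromosomes 1 to 19 were divided into bins of 10 kb, counted from position 0 of mouse build mm9, and a list was said to hold a bin when its merged peaks covered at least 1 kb of it. A bin was taken when all 3 E13.5 male H3K9me3 lists held it and none of the 3 E13.5 female H3K9me3 lists did. The rule took 3512 of 247207 autosomal bins (1.42%), which merged into 3028 regions with a total length of 35.12 Mb. They are called male-rule bins and male-rule regions below. The peak lists that chose them are also the lists that separate them by sex, so the male and female H3K9me3 values are given as a description with no test.

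The study sorted primordial germ cells, the precursors of eggs and sperm, from mouse embryos and mapped H3K9me3 and histone H3 lysine 27 trimethylation (H3K27me3) by ultra-low-input native ChIP-seq. There were 3 libraries of each mark from E13.5 male, E13.5 female and E10.5 germ cells, and the 13 input libraries were not used here. All groups were wild type embryos of a C57BL/6 by GOF18delta_PE-EGFP cross, a line in which EGFP marks germ cells for sorting. Each ChIP took 1000 cells and 250 ng of antibody, with chromatin cut by micrococcal nuclease and no fixation. Cells of several embryos were pooled for E10.5, and their sex is not given. The labels do not say whether replicates came from separate animals, so the spread between libraries may be technical, and p-values below measure only that spread. Peak lists carry no read counts, so the depth of each library is unknown, and the identity of the cells could not be checked against marker genes.

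H3K9me3 is the mark of constitutive heterochromatin. It is laid down by enzymes such as SETDB1 and the SUV39H pair, is bound by HP1 proteins, and keeps transposable elements and some gene clusters silent. H3K27me3 is laid down by Polycomb repressive complex 2 and typically covers the promoters of developmental regulators. In fetal germ cells DNA methylation is widely erased, and both marks are known to remain at subsets of sequences through that period.

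The lists differed in length before any region was chosen. Autosomal H3K9me3 peaks covered 74.0, 43.4 and 23.5 Mb in E13.5 male replicates 1 to 3, against 4.83, 9.75 and 3.29 Mb in E13.5 female replicates 1 to 3. The E10.5 H3K9me3 lists covered 1.80, 42.7 and 0.351 Mb, so E10.5 replicate 2 was as long as a male list and the other two E10.5 lists were shorter than any E13.5 list. Every male list was longer than every female list, so sex and list length cannot be told apart in these regions, and in bulk samples fewer marked cells cannot be told apart from less of the mark per cell. The input of E10.5 H3K9me3 replicate 2 carries E13.5 as its stage in another label field, against E10.5 in its title. The peak names of E10.5 H3K27me3 replicate 3 name an H3K9me3 input as control.

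The male-rule bins held 14.7, 9.84 and 7.09 Mb of peaks in male replicates 1, 2 and 3, against 0.660, 1.07 and 0.396 Mb in female replicates 1, 2 and 3. The E10.5 lists held 0.401, 9.98 and 0.0460 Mb there. The male mean was 10.53 ± 3.83 Mb, the female mean 0.708 ± 0.338 Mb and the E10.5 mean 3.47 ± 5.63 Mb (SD, n = 3 each). The male and female values did not overlap, as the rule requires, and within E10.5 replicate 2 alone reached the male range. Taken as a share of each list's own autosomal peak length, the bins made up 19.8, 22.7 and 30.1% of the male lists and 13.7, 10.9 and 12.04% of the female lists. The E10.5 lists had 22.3, 23.4 and 13.1% of their length in them. The rule caps the female share, since no female list may have 1 kb in a bin. The bins make up 1.42% of autosomal bins, so every H3K9me3 list, female ones included, had a larger share of its peak length there than the bins' share of the autosomes.

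**Figure D1:**
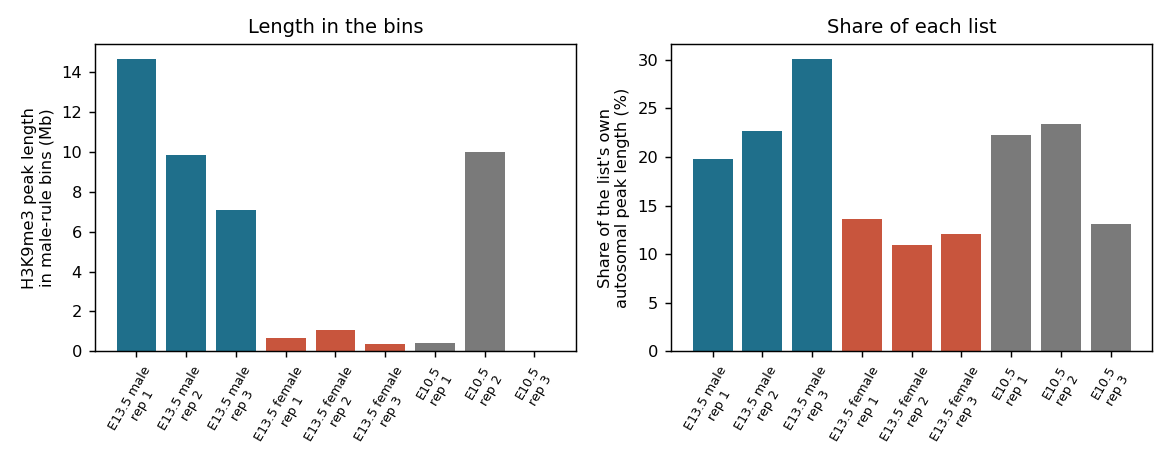
H3K9me3 peak length in the 3512 male-rule bins for each of the 9 H3K9me3 libraries, in Mb (left) and as a percent of the library's own autosomal peak length (right); each bar is 1 library. In Mb the 3 male lists and E10.5 replicate 2 stand at 7.09 to 14.7 and the other 5 lists at 1.07 or less, while as a share of its own length each list has 10.9 to 30.1%.

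Within the male lists, a male-rule bin was partly covered. The median bin held 3.93, 2.48 and 1.76 kb of peaks in male replicates 1, 2 and 3, and no more than 0.999 kb in any female list. Replicate 1 had the most peak length of the 3 male lists in 2635 bins (75.03%), and replicate 3 had the least in 2361 bins (67.2%), which is the order of the whole lists. In 1028 bins (29.3%) all 3 male lists had at least 2 kb, and in 15 bins all 3 had at least 5 kb. The male peaks in these bins had median widths of 1399, 931 and 899.5 bp, against 890, 716 and 616 bp over all autosomal peaks of the same lists. Ranked by the authors' score within each list, they lay at median percentiles of 59.5, 54.0 and 51.1. The male peaks were thus near the middle of their lists in score.

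The data go partly against the reading that these regions lack the mark in female cells. Some female peak length, below the 1 kb that holds a bin, was present in at least 1 female list in 2660 of 3512 bins (75.7%). Female replicates 1, 2 and 3 had a peak in 39.1, 57.3 and 22.6% of the male-rule bins, against 3.06, 5.07 and 1.95% of all autosomal bins. These female peaks were short, with median widths of 347, 375 and 428 bp. In 852 bins (24.3%) all 3 female lists were at 0, and in 271 bins all 3 female lists had some length.

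The 1 kb threshold cut through many bins. There were 687 bins inside it by under 100 bp and 757 outside it by at most 100 bp. Just inside were chr4:92560001-92570000 and chr5:95340001-95350000, with 1 kb in the lowest male list. Also just inside were chr7:34580001-34590000, chr2:71780001-71790000 and chr4:61380001-61390000, with 4.55, 4.78 and 4.48 kb in the lowest male list and 0.999 kb in the highest female list. Just outside, chr5:30550001-30560000 and chr2:94440001-94450000 had 3.06 and 1.57 kb in the lowest male list and 1 kb in the highest female list. In chr7:34550001-34560000, chr8:76030001-76040000 and chr10:11180001-11190000, also just outside, the lowest male list had 0.999 kb.

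The opposite rule, all 3 female lists and no male list, took 0 bins (0%). All 3 male lists held 6071 bins (2.46%). Of these, 3512 were male-rule bins, 2400 were also held by 1 or 2 female lists and are called partly shared bins, and 159 were held by all 6 E13.5 lists. The male peaks ranked higher in score in the classes that female lists also held. In male replicates 1, 2 and 3 the median percentiles were 69.4, 63.8 and 60.3 in partly shared bins and 95.9, 94.5 and 92.4 in bins held by all 6 lists, above the values of the male-rule bins in each list.

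Leaving each list out of the rule in turn gave a set of bins that this list had no part in choosing. The list's own peaks there are a description, since replicates are not known to come from separate animals. For a male list, the bins it held are the 3512 male-rule bins each time, so its share follows from the size of the set. Male replicate 1 held 3512 of 3691 bins chosen by the other 5 lists (95.2%), against 8.67% of all autosomal bins. Male replicate 2 held 76.2% of 4606 bins, against 5.79% of all bins. Male replicate 3 held 38.6% of 9106 bins, against 3.21% of all bins. Each male list thus held the bins chosen without it more often than it held autosomal bins at large, and the share was lower the shorter the list.

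The left-out female lists also held the bins chosen without them more often than autosomal bins at large. Female replicate 1 held 9.44% of the 3878 bins chosen without it, against 0.498% of all autosomal bins. Female replicate 2, the longest female list, held 26.8% of 4800 bins, against 1.23% of all bins. Female replicate 3 held 4.49% of 3677 bins, against 0.307% of all bins. All 3 left-out female shares lay below all 3 left-out male shares, but the female lists held fewer bins of any kind. Relative to its own share of all autosomal bins, each left-out female list was further above it than any left-out male list. That order is limited by list length, since a list that holds more of all bins has less room above its own share. It therefore does not show which sex was more enriched in these bins. Neither difference was tested, since the 6 sets share lists. Without male replicate 3, the shortest male list, the rule took 9106 bins in place of 3512, and no other list moved the count as far.

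**Figure D2:**
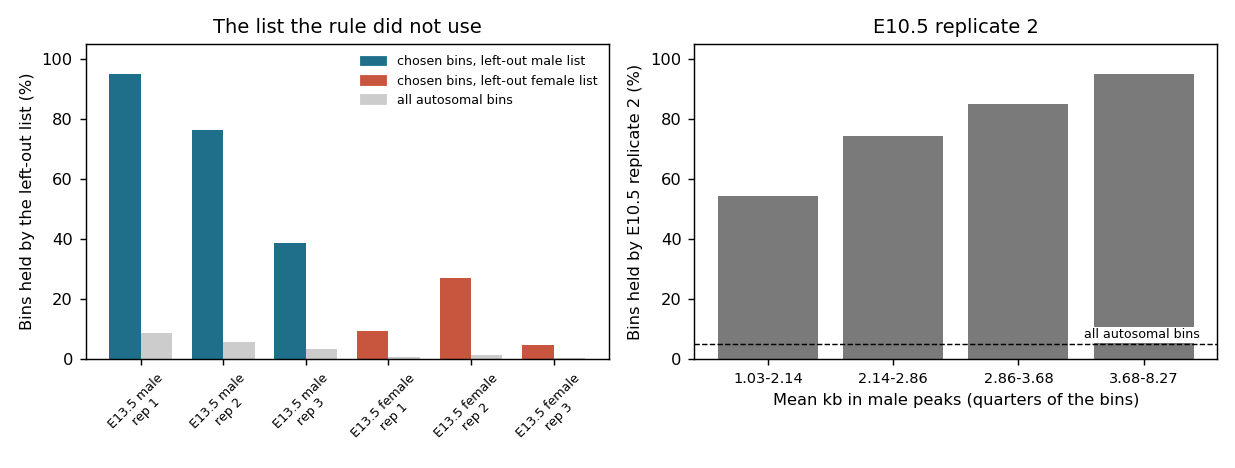
Left, the percent of bins chosen by the other 5 E13.5 H3K9me3 lists that the left-out list held with at least 1 kb of peaks, beside the percent of all autosomal bins it held; each pair of bars is 1 library. Left-out male lists held 38.6 to 95.2%, against 3.21 to 8.67% of all bins, and left-out female lists 4.49 to 26.8%, against 0.307 to 1.23% of all bins. Right, the percent of male-rule bins held by E10.5 replicate 2 in 4 equal groups of bins by mean male peak length in kb, with the dashed line at its 4.82% of all bins; the share goes from 54.2% in the group with the least male length to 94.99% in the group with the most.

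The set shrank when lists were made alike in number of peaks. With the 6720 peaks of highest score from each E13.5 list, the length of the shortest, the rule took 173 bins and the opposite rule took 2. Of the 173 bins, 128 were among the 3512, which is 74.0% of the smaller and 3.64% of the larger set. The male lists still covered more length at this number of peaks, with 10.7, 6.62 and 5.50 Mb against 3.08, 3.34 and 3.29 Mb in the female lists, so list length was reduced as a difference but not removed. With only peaks scored 20 or more the rule took 180 bins, of which 106 were among the 3512, or 58.9% of the smaller and 3.02% of the larger set. That score kept 8.57, 10.1 and 16.9% of the peaks of male replicates 1, 2 and 3. It kept 18.8, 11.3 and 43.3% of the peaks of female replicates 1, 2 and 3, so it did not treat the lists alike. The great majority of male-rule bins were therefore not taken at either setting.

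Around the regions, male peaks formed a narrow rise, which follows from the rule, since most regions are a single bin chosen for its male peaks. At the centre of a region 47.3, 31.2 and 22.3% of regions were covered by a peak in male replicates 1, 2 and 3, against 2.15, 3.54 and 1.39% in female replicates 1, 2 and 3. In E10.5 replicates 1, 2 and 3 the centre was covered in 1.22, 31.4 and 0.265% of regions. E10.5 replicate 2 thus had a centre as high as that of male replicate 2.

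**Figure D3:**
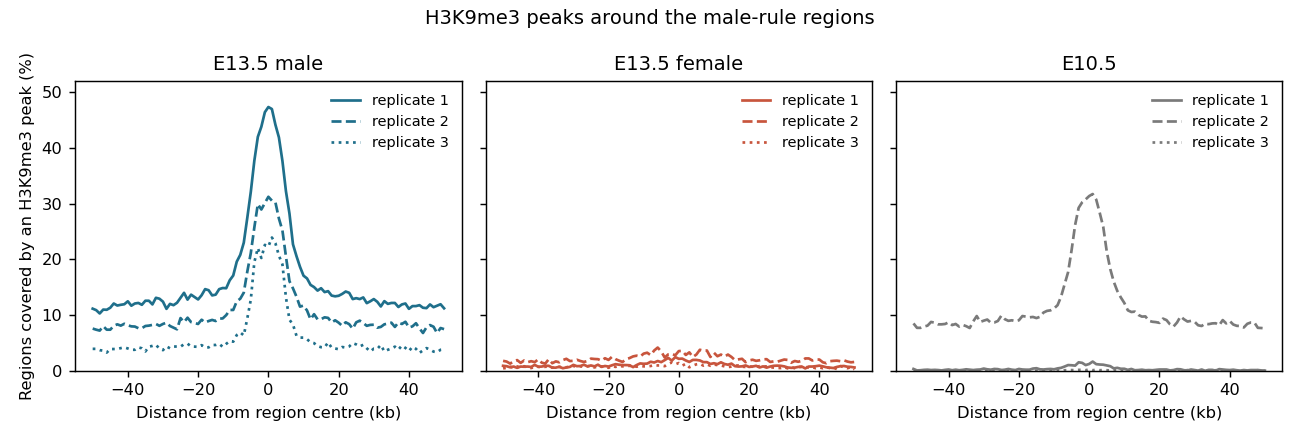
Percent of 3023 male-rule regions covered by an H3K9me3 peak at each distance, in kb, from the region centre, with 1 line per library; regions within 50 kb of a chromosome end were left out. The 3 male lists and E10.5 replicate 2 rise at the centre to 22.3 to 47.3%, while the female lists and the other two E10.5 lists are at 0.265 to 3.54% there.

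Most regions were short. Of 3028 regions 2643 (87.3%) were a single bin, 316 had 2 bins, 52 had 3, 11 had 4 and 6 had at least 5. The 385 regions of 2 or more bins held 869 bins. The longest was chr7:15250001-15330000, with 37.8, 27.3 and 16.7 kb of peaks in male replicates 1, 2 and 3 and 2.42, 3.78 and 0.567 kb in female replicates 1, 2 and 3. In the E10.5 lists it had 0, 25.2 and 0 kb. In chr11:73920001-73990000 the male lists had 36.8, 28.99 and 18.2 kb, the female lists 1.06, 2.59 and 3.12 kb and the E10.5 lists 1.19, 34.5 and 0.633 kb. In these regions the female lists were low without being empty, and of the E10.5 lists replicate 2 had nearly all of the peak length.

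The region chr9:19670001-19740000 had 37.0, 26.1 and 14.1 kb in the male lists, 2.38, 1.49 and 0.504 kb in the female lists and 0.853, 27.6 and 0.591 kb in the E10.5 lists. The region chr3:25410001-25460000 differed from these, since no female list had any peak in it. Its male lists had 34.8, 36.7 and 24.5 kb of the 50 kb, a mean of 32.0 ± 6.59 kb (SD, n = 3), and its E10.5 lists had 0, 35.6 and 0 kb. It also holds 3 of the 4 bins in which every male list had at least 5 kb and every female list was at 0. The fourth is chr2:27350001-27360000, with 5.70, 6.41 and 5.52 kb in the male lists, 0 kb in the female lists and 4.24, 7.46 and 1.03 kb in the E10.5 lists. That bin is also 1 of 2 male-rule bins that all 3 E10.5 lists held.

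The other 6 of the 10 longest regions, of which 4 were picked from the 11 regions of 4 bins for their higher mean male peak length, had male means of 13.52 to 19.2 kb. They were chr12:25000001-25050000, chr12:116140001-116190000, chr10:82910001-82950000, chr7:32240001-32280000, chr7:69760001-69800000 and chr19:39650001-39690000. In chr10:82910001-82950000 the male lists had 31.4, 12.9 and 13.4 kb, the female lists 1.47, 1.09 and 0 kb and the E10.5 lists 3.28, 29.5 and 0.433 kb. In chr12:25000001-25050000 the male lists had 19.9, 10.3 and 11.4 kb, the female lists 0, 2.78 and 1.46 kb, and E10.5 replicate 2 had 27.8 kb. In each of these 6 regions the lowest male list had more than the highest female list, as the rule requires of any region. E10.5 replicate 2, which the rule did not use, had 14.7 to 29.5 kb in them. With equal numbers of peaks, 2 of the 10 longest regions kept any bin, and these were 6 of their 53 bins.

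The bins that stood up to both an equal number of peaks and a score of at least 20 were few. There were 132 such bins, of which 106 were male-rule bins, and 16 of these were at 0 in every female list and formed 12 regions, picked after their values were seen. Besides the chromosome 3 and 2 regions above, chr2:125780001-125790000 had 5.01, 3.65 and 2.86 kb in the male lists. In chr5:70940001-70950000 the male lists had 3.48, 2.61 and 3.14 kb, and in chr8:38440001-38450000 they had 3.74, 2.999 and 2.28 kb. All 12 regions also had at least 1 kb in E10.5 replicate 2.

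The male-rule bins often lay close to each other. Of 3512 bins 49.8% had another male-rule region within 100 kb, 36.6% within 50 kb and 63.6% within 200 kb, and the median gap between regions was 260 kb (interquartile range 70 to 950 kb). Of 2482 windows of 1 Mb, 1343 (54.1%) held any male-rule bin, and 142 windows (5.72%) with 5 or more held 1409 of the bins (40.1%). Among partly shared bins 49.9% lay within 100 kb of another region of their class, and among bins held by all 6 lists 56.6%. The classes differ in number of bins, and their median gaps were 260 kb for male-rule, 430 kb for partly shared and 1140 kb for all-6 bins, so the shares are given side by side with no comparison. With each bin counted by itself and adjoining bins included, 56.3% of male-rule bins had another male-rule bin within 100 kb, against 18.2% of all autosomal bins. With other peaks used, the male-rule share was 8.67% among the 173 bins from equal numbers of peaks and 12.2% among the 180 bins with a score of at least 20. Those sets are far smaller, and a sparser set has fewer near neighbours at any placement, so these shares cannot be compared with the 49.8%.

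The male-rule bins also lay near bins with the mark in female cells. A bin held by at least 1 female list adjoined 906 male-rule bins (25.8%), against 2.97% of all autosomal bins, and lay within 100 kb of 55.9%, against 18.2% of all bins. Such a bin adjoined 40.7% of partly shared bins and 78.0% of bins held by all 6 lists. Within 100 kb those shares were 66.0 and 87.4%, so male-rule bins had the lowest share of the male-held classes. The densest 1-Mb window, chr7:15000001-16000000, had 29 male-rule bins next to 33 partly shared bins and 2 bins held by all 6 lists. In that window the male lists had 497, 352 and 213 kb of peaks, the female lists 31.1, 103 and 41.6 kb and the E10.5 lists 3.63, 434 and 3.58 kb. Both sexes thus had H3K9me3 peaks in this window. Every male list was above every female list, in a window picked for its male-rule bins.

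The next 4 windows were chr7:32000001-33000000 and chr12:116000001-117000000 with 26 male-rule bins each, and chr6:130000001-131000000 and chr7:34000001-35000000 with 25 each. Beside them lay 9, 18, 9 and 33 partly shared bins. In chr6:130000001-131000000 the male lists had 356, 278 and 103 kb, the female lists 16.5, 42.6 and 12.4 kb and the E10.5 lists 1.97, 203 and 0.581 kb. In each of these 4 windows, too, every male list had more peak length than every female list. All 5 windows were picked for their male-rule bins, and every male list was longer over all autosomes, so that order is no separate result. Of the 5 densest windows, 3 were on chromosome 7.

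Chromosome 7 had 491 of the 3512 bins (13.98%), or 3.22 per Mb, which is 2.27 times its share of autosomal length. The next were chromosome 12 with 1.77 bins per Mb, chromosome 17 with 1.73, chromosome 14 with 1.61 and chromosome 4 with 1.54. Chromosomes 8 and 11 had the fewest, with 0.827 and 0.829 per Mb, followed by chromosomes 2 and 15 with 1.06 each and chromosome 16 with 1.11. Chromosome 7 thus stood apart, and the other 18 autosomes lay between 0.827 and 1.77 per Mb. Its share was 7.51% among the 173 bins from equal numbers of peaks and 8.89% among the 180 bins with a score of at least 20, against its 6.16% of autosomal length, so its excess over its length was smaller in those sets. Partly shared bins had a similar order, with 2.25 per Mb on chromosome 7, 2.06 on chromosome 12 and 0.386 on chromosome 11. Over the 19 autosomes, bins per Mb of both classes had a Pearson r of 0.83 and a Spearman rho of 0.78 (r = 0.72 without chromosome 7), as a description, since both classes come from the same 3 male lists.

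**Figure D4:**
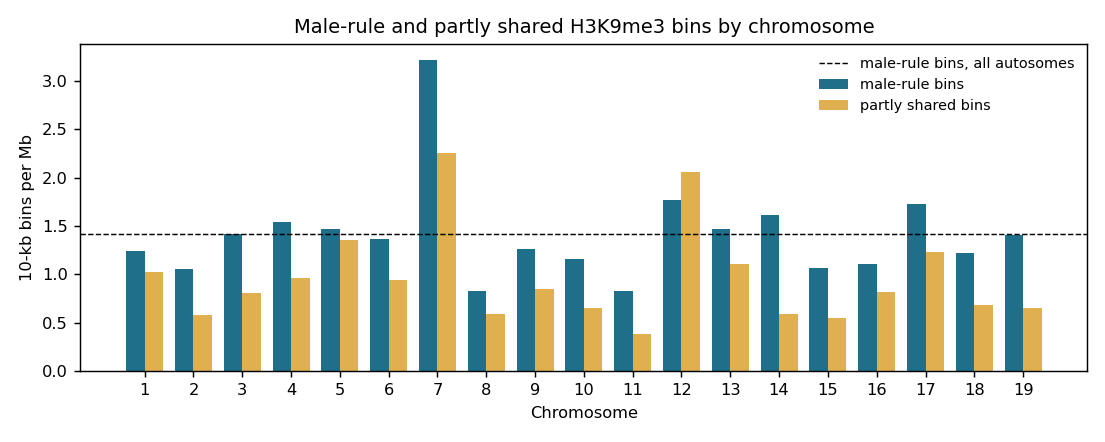
Male-rule bins and partly shared bins (held by all 3 male and by 1 or 2 female lists) per Mb of each mouse autosome, with the dashed line at the male-rule mean over all autosomes. Chromosome 7 has the most of both classes, with 3.22 and 2.25 per Mb, and chromosome 12 has more partly shared than male-rule bins.

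Chromosome 7 is known for large clusters of vomeronasal receptor, olfactory receptor and zinc finger protein genes. By symbol in the RefSeq table of GRCm38.p6, it carries 178 of 352 autosomal vomeronasal receptor genes, 93 of 388 Zfp genes and 239 of 1104 olfactory receptor genes. Over the 19 autosomes male-rule bins per Mb had a Pearson r of 0.85 with vomeronasal receptor genes per Mb (rho = 0.61), which became 0.42 without chromosome 7 (rho = 0.53). The Pearson values with and without chromosome 7 were 0.66 and 0.17 for Zfp genes, 0.35 and -0.24 for olfactory receptor genes and 0.32 and -0.24 for all protein-coding genes. The rank correlations (rho) with and without chromosome 7 were 0.11 and -0.04 for Zfp genes. They were -0.07 and -0.23 for olfactory receptor genes and -0.05 and -0.23 for all protein-coding genes. The Pearson values all dropped without chromosome 7, while the rank correlation with vomeronasal receptor genes moved little. Chromosome 12, the next in male-rule bins per Mb, has 0 vomeronasal receptor genes by symbol. Positions in mm9 were not joined to genes, so no gene is named for any region.

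Along the chromosomes, male-rule bins were denser toward the centromere, which lies at the start of mouse chromosome coordinates. With each autosome split into 10 equal parts, the first 3 parts held 14.9, 16.7 and 11.8% of the bins and each of the other 7 held 7.43 to 9.31%. Without chromosome 7 the first 3 parts held 12.98, 15.1 and 11.2%. Partly shared bins had 16.7, 19.6 and 10.7% in the same parts, a like pattern, and the difference between the classes was not tested.

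The E10.5 lists were not used by the rule, and most male-rule bins carried peaks in E10.5 replicate 2. That list held 2710 of 3512 male-rule bins (77.2%, exact 95% binomial interval 75.7 to 78.5), against 4.82% of all autosomal bins. E10.5 replicate 1 held 137 (3.90%), against 0.217% of all bins, and replicate 3 held 3 (0.0854%, interval 0.0176 to 0.249), against 0.0231% of all bins. Replicates 1 and 2 thus held male-rule bins at a higher share than autosomal bins at large, while the 3 bins of replicate 3 are too few to tell at 1 kb. By any overlap, replicate 3 touched 129 male-rule bins (3.67%), against 0.330% of all bins. The 77.2% is a value of a single library, the one whose input has E13.5 in a label field. Replicates 1 and 3 covered 1.80 and 0.351 Mb of the autosomes in all, and the part of list length in their shares was not tested. Whether replicate 2 speaks for E10.5 cells was not tested. The intervals cover counting error over bins only, and neighbouring bins are not independent.

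A peak of E10.5 replicate 2 touched 3193 male-rule bins (90.9%), and 319 bins had none. With a score of at least 20 in the E10.5 list alone, it held 50.6% of the male-rule bins. Its median length per male-rule bin was 2.54 kb, close to the 2.48 kb of male replicate 2. The peaks were wide, with a median of 1651 bp, against 1068 bp over all autosomal peaks of that list. Over the 3512 bins the length in E10.5 replicate 2 had a Pearson r of 0.53, 0.41 and 0.45 with male replicates 1, 2 and 3, as a description over bins that share libraries and neighbours and in which the rule sets a minimum of 1 kb for the male lists.

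The bins held by E10.5 replicate 2 had more male peak length than the rest. In 4 equal groups of 878 bins by mean male length, it held 54.2, 74.4, 85.1 and 94.99%. The 2710 bins it held had median lengths of 4.34, 2.71 and 1.92 kb in male replicates 1, 2 and 3, against 2.85, 1.86 and 1.43 kb in the 802 bins it did not hold. It held 82.4% of the bins with some female peak length and 60.8% of the 852 bins at 0 in every female list. It held 96.0% of the partly shared bins and 100% of those held by all 6 lists. Among bins held by all 3 male lists, the share was thus lowest in male-rule bins and highest in bins held by all 6. Male peak length rose in the same order, with medians of 3.93, 5.64 and 7.51 kb in male replicate 1. The part of each in the share was not tested. By chromosome the share was lowest on chromosome 1, at 66.1%, and highest on chromosomes 7 and 5, at 86.6 and 86.2%. Of all bins the list held 4.36% on chromosome 1, 11.1% on chromosome 7 and 5.45% on chromosome 5. In the sets chosen without each list in turn, E10.5 replicate 2 held 56.1% (without male replicate 3) to 82.2% (without female replicate 2).

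H3K27me3 was nearly absent from the male-rule bins. No H3K27me3 list of E13.5 male or E13.5 female cells held any of the 3512 bins with at least 1 kb (0 of 3512, an upper 95% limit of 0.105%). Over all autosomal bins the E13.5 male lists held 0.321, 0.00688 and 0.508%, and the E13.5 female lists held 0.193, 0.664 and 0.505%. At least 1 male list held 0% of male-rule bins against 0.616% of all bins, and at least 1 female list held 0% against 0.875%. For male replicate 2, whose H3K27me3 list has 359 peaks, a share of 0 carries little, since it held 17 autosomal bins in all. At E10.5 at least 1 list held 8 male-rule bins (0.228%), against 3.53% of all bins.

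By library, E10.5 replicate 1 and replicate 3, the list whose peak names give an H3K9me3 input, held 4 and 7 male-rule bins with H3K27me3, against 2.04 and 3.41% of all bins, and replicate 2 held 0 against 0.263%. The count was low by any overlap too. Male replicates 1, 2 and 3 had some H3K27me3 in 12, 10 and 11 male-rule bins, or 0.342, 0.285 and 0.313%, against 1.11, 0.133 and 1.61% of all bins. Female replicates 1, 2 and 3 had some in 10, 5 and 11 bins, or 0.285, 0.142 and 0.313%, against 0.792, 2.02 and 1.92% of all bins. E10.5 replicates 1, 2 and 3 had some in 26, 13 and 17 bins, or 0.740, 0.370 and 0.484%, against 3.49, 0.575 and 5.89% of all bins. In 8 of the 9 lists the share was below that of all bins, and the exception was the 359-peak list of male replicate 2. Over the 9 lists, 61 male-rule bins had any H3K27me3 and 3451 had none.

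**Figure D5:**
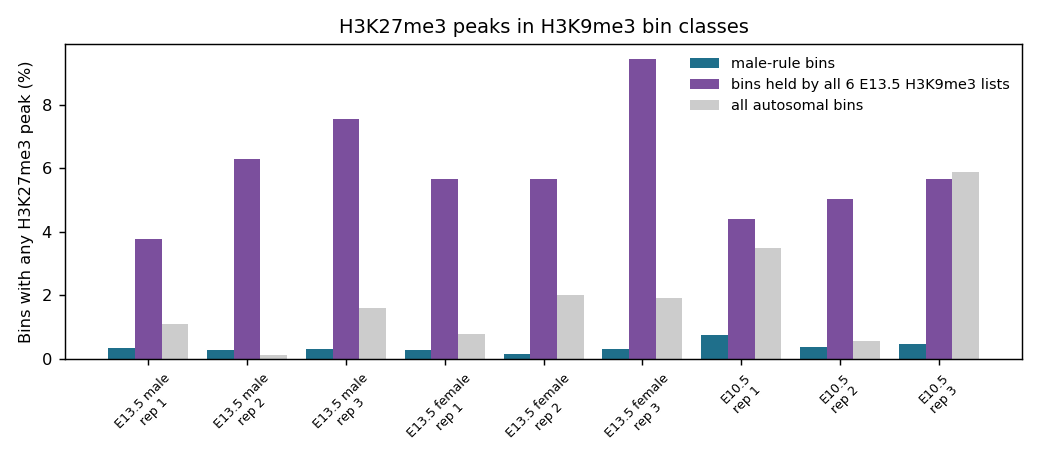
Percent of bins with any H3K27me3 peak in each of the 9 H3K27me3 libraries, for male-rule bins, bins held by all 6 E13.5 H3K9me3 lists and all autosomal bins; each group of bars is 1 library. Male-rule bins lie between 0.142 and 0.740%, below all autosomal bins except in E13.5 male replicate 2.

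H3K27me3 was more frequent in the few bins held by all 6 H3K9me3 lists than in the male-rule or the partly shared bins. At least 1 male H3K27me3 list held 8 of the 159 bins held by all 6 H3K9me3 lists (5.03%), against 0 of the male-rule bins and 3 of the 2400 partly shared bins (0.125%). At least 1 female H3K27me3 list held 7 of the 159 (4.40%). The 159 bins are few and their peaks rank near the top of the H3K9me3 lists, so this is a description of those bins and not a test.

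What H3K27me3 the male lists had in male-rule bins was short and lay mostly inside male H3K9me3 peaks. The stretches per bin were 124 to 289 bp long in the male lists, and came to 3.07, 2.34 and 2.57 kb over all bins in male replicates 1, 2 and 3. Of this length, 90.6, 82.2 and 92.0% was shared with H3K9me3 peaks of the same replicate number in male cells, while those peaks covered 41.8, 28.0 and 20.2% of the bins' length. The most was at chr4:95710001-95730000, with 0.248, 0.240 and 0.281 kb in the male lists and 0, 0 and 0.243 kb in the female lists. At chr8:102770001-102780000 the male lists had 0.260, 0.241 and 0.267 kb and the female lists 0.255, 0 and 0 kb, and at chr3:139220001-139230000 they had 0.233, 0.191 and 0.168 kb against 0.196, 0 and 0 kb. These regions hold the 3 male-rule bins with H3K27me3 in all 3 male lists. The next, chr3:114290001-114300000 and chr6:6920001-6940000, each had H3K27me3 in 2 of the 3 male lists.

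At E10.5 the few H3K27me3 peaks were longer. The bin chr9:121130001-121140000 had 0 kb of H3K27me3 in all male lists, 0, 0.468 and 0.446 kb in the female lists and 3.57, 0.261 and 7.14 kb in the E10.5 lists. Its H3K9me3 length was 3.10, 2.29 and 2.73 kb in the male lists, 0 kb in the female lists and 0, 0.413 and 0 kb in the E10.5 lists. This bin thus had H3K27me3 and little H3K9me3 at E10.5, and H3K9me3 with no H3K27me3 peak in male cells. The bin chr10:79820001-79830000 had the same arrangement, with H3K27me3 of 2.95, 0.263 and 6.21 kb at E10.5 and 0 kb in the male lists. Its H3K9me3 length was 1.62, 2.40 and 1.23 kb in the male lists, and 0 kb at E10.5. These bins were picked for their E10.5 H3K27me3, and the lists differ in length. Autosomal H3K27me3 peaks covered 19.5, 2.07 and 34.7 Mb in E10.5 replicates 1, 2 and 3, against 2.46, 0.155 and 3.98 Mb in the male lists. The H3K9me3 lists of E10.5 replicates 1 and 3 covered 1.80 and 0.351 Mb. Whether the marks changed places in these bins was not tested.

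The remaining regions named for E10.5 carried both marks at that stage in different libraries. At chr6:65330001-65340000 H3K27me3 was 0 kb in the male lists and 1.03, 0 and 2.08 kb in the E10.5 lists, and H3K9me3 was 3.87, 2.46 and 1.79 kb in the male lists and 4.83 kb in E10.5 replicate 2. At chr11:70170001-70190000 and chr2:148230001-148240000 H3K27me3 was in E10.5 replicate 3 alone, with 3.62 and 1.54 kb. Of the H3K27me3 length of E10.5 replicates 1, 2 and 3 in male-rule bins, 42.3, 86.7 and 0.253% lay in H3K9me3 peaks of the same number, where the H3K9me3 lists of replicates 1 and 3 are short.

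The difference in H3K27me3 between groups was tested in a limma fit over all autosomal bins with H3K27me3 in at least 3 of the 9 libraries, as log2 of the share of each library's peak length in ppm plus 100, where a positive value is higher in male cells. Of 5837 bins tested, 14 were male-rule bins, and the rest of the male-rule bins were left out by this filter, 3451 of them with no H3K27me3 in any list. Between E13.5 male and E13.5 female cells 1 of the 5837 bins passed a Benjamini-Hochberg adjusted p of 0.05 (0.0171%), and 0 of the 14 did. At an unadjusted p of 0.05, 2 of the 14 and 426 of all bins passed. Between E13.5 male and E10.5 cells 3 bins passed (0.0514%), and 0 of the 14, with 3 of the 14 and 518 of all bins at an unadjusted p of 0.05. The lowest adjusted p of a male-rule bin was 0.659 between the sexes and 0.429 between the stages.

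Among the 14, chr9:121130001-121140000 had a difference of -1.43 ± 0.73 (SE, limma adjusted p = 0.562) between E13.5 male and E10.5 cells on this log2 scale, and of -0.68 ± 0.73 (adjusted p = 0.756) between male and female cells, neither past the threshold. The value for chr8:102770001-102780000 was 1.89 ± 0.77 between male and E10.5 cells (SE, limma adjusted p = 0.429). With lists of 359 to 5333 peaks in the male group, a short peak in male replicate 2 is a large share of that list. In the 14 male-rule bins tested, no difference of H3K27me3 was detectable with these lists. The fits called 1 and 3 of 5837 bins in all, so that result says little about the male-rule bins.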

How the data were processed

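Peak lists of 18 ChIP libraries were used, each called per sample against an input, per the file headers and peak names. MACS2 2.1.0, BWA 0.7.5a, deepTools 3.3.0, CASAVA 1.8.4, SAMtools and Picard, and the build mm9, are credited to the submitters' processing notes, which give no roles. The sources used here do not give peak thresholds. The deposited peak scores are the authors' own values of unknown scale (column 9 exceeds column 8 in 100% of peaks) and only ranked or filtered peaks within a list. The other deposited values are peak positions, written here as 1-based coordinates.

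Peaks were merged per list and their length summed in 10-kb autosomal bins. Groups came from the sample titles. H3K27me3 was fitted with limma 3.58.1 in R 4.3.3 on log2(ppm + 100), 9 libraries in 1 fit, and the procedure was tested on simulated data; other steps used Python 3.11.15, numpy 2.4.6 and scipy 1.17.1. The members, the rules and the lists were chosen with earlier results of these data known. Named regions are the 10 longest (ties by mean male peak length), the 5 densest 1-Mb windows, the 5 chromosomes with most and 5 with fewest bins per Mb, the 5 with most H3K27me3 in male and in E10.5 lists, and the 5 bins on each side of the threshold. Regions named by other criteria were picked after their values were seen. Gene families were counted per chromosome by symbol in the RefSeq table of GRCm38.p6. No mm9 sequence or annotation was used here, so regions carry no gene names or sequences.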

Additional observations from a re-analysis of the deposited data

How the results depend on the processing

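The count of 3512 bins was 1928 with 2 kb holding a bin, 2117 with 20-kb bins, 1715 with peaks above each list's median score, 180 with a score of at least 20, 173 with equal numbers of peaks, 852 with no female length, and 3677 to 9106 with each library left out. The 3028 regions became 1685, 166 and 163 with 2 kb, that score and equal numbers, and 3135 to 6978 with each library left out. The share within 100 kb (49.8%) was 12.2% with that score and 8.67% with equal numbers, 36.6 and 63.6% within 50 and 200 kb, and 50.7 to 71.1% with each library left out. This share also depends on the number of bins in a set. The chromosome 7 share (13.98%) was 8.89 and 7.51% at the same settings, and 11.5 to 14.2% with each library left out. The share held by E10.5 replicate 2 (77.2%) was 93.3% with that score in every list and 50.6% with it in the E10.5 list, 90.9% by any overlap, 59.4% with 2 kb, and 56.1 to 82.2% with each library left out. The share with H3K27me3 (0%) was 0.626% by any overlap. The highest counts without a library, and the lowest chromosome 7 and E10.5 shares, came without E13.5 male replicate 3; the causes were not tested. The limma fits called 0 male-rule bins at every setting tried.

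With the replicate number as a block, the fits called 1 bin each between the sexes and between the stages, 0 of them male-rule bins, against 1 and 3 without it. Same-numbered libraries deviated together with correlations of -0.119 to 0.093, so the numbers were not taken to pair samples. The unknown depth limits all values: a bin without a peak is not shown to lack the mark.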
